A study of Homo sapiens with 8 samples.

Results

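PML::RARA peaks were examined at 9 genes of SRC-type tyrosine kinase signalling, namely the SRC family kinases SRC, FYN, YES1, FGR, LYN and LCK, the kinase SYK, the inhibitory kinase CSK and its membrane anchor PAG1. The data came from Cut&Run, in which an antibody guides a nuclease to the protein of interest in isolated nuclei and the DNA cut free is sequenced. U937-PR9 is a human monocytic line whose PML::RARA transgene is driven by a zinc-inducible promoter. The cells had been given 100 μM ZnSO4 for 5 h (induced) or water (uninduced), and each state was profiled with an anti-PML-RARA and an anti-RARA antibody in 2 replicates, 8 libraries in all. Only the list of anti-PML-RARA peaks from induced cells, kept by the authors across both replicates, was analysed here. The list gives no values for single replicates, and the other groups were not analysed here, so the values below describe peaks present after induction, with no error between replicates and no test. Effects of zinc itself cannot be told apart from those of the fusion protein, since both came with induction.

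The peaks were chosen by their annotation and position in this list. A peak was taken if its gene column named one of the 9 genes, or if that column was empty and its centre lay within 50 kb of the centre of such a peak. This gave 33 of the 15412 peaks, of which 12 had a symbol (promoter peaks) and 21 had none (unlabelled peaks). The 12 promoter peaks belonged to 7 genes, and SRC and LYN had no row under their own symbol. In the whole list 29.9% of protein-coding genes had a promoter peak, and since the 9 genes were picked with the list known, nothing is read from 7 of 9. The unlabelled peak closest to the 50 kb limit on its inner side lay 46.2 kb from the FYN promoter peak with a height of 22, and the closest on the outer side lay 54.8 kb from an FGR promoter peak with a height of 24. Height stands for the largest signal within a peak, total signal for the sum over the peak, and width for its length in bp. Ranks count from the highest value of the list, and tied peaks share the better rank.

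SRC family kinases sit at the inner face of the plasma membrane and phosphorylate tyrosines when immune receptors or integrins are engaged. CSK keeps them inactive by phosphorylating a tyrosine in their tail, and PAG1 brings CSK to the membrane. SYK binds receptor tails that the SRC family kinases have phosphorylated and passes the signal on. Monocytes and granulocytes use FGR, LYN and SYK downstream of Fc receptors and integrins, LCK is best known from T cells, and SRC, FYN and YES1 are found in most tissues.

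The DNA at the apex, the place of the largest signal, is shown for the promoter peaks of CSK, FGR, SYK, FYN and LCK on which the description turns, and for an unlabelled SYK peak with 3 motif sites. All are printed 5′ to 3′ on the plus strand of hg19 (GRCh37 sequence), up to 75 bases on each side of the apex and cut short where a UTR begins. Capitals mark 7 short motifs searched on both strands. These were AGGTCA and AGTTCA (hexamers bound by retinoic acid receptors), GGAAGT (ETS factors such as PU.1), GGGCGG (SP and KLF factors), TGTGGT (RUNX), TGANTCA (AP-1) and TTGCNNAA (C/EBP), so that capitals such as ACTTCC are the other strand of GGAAGT.
CSK promoter peak, chr15:75075749-75075899: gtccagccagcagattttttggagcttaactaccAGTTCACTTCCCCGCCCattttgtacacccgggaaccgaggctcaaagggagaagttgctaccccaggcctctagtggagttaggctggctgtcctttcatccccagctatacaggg
FGR widest promoter peak, chr1:27959397-27959547: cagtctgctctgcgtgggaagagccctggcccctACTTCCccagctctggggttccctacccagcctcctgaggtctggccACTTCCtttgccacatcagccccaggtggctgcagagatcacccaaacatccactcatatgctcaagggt
SYK start site peak, chr9:93563970-93564068: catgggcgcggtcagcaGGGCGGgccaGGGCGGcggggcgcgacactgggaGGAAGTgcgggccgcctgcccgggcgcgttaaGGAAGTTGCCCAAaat
SYK intronic promoter-labelled peak, chr9:93605363-93605513: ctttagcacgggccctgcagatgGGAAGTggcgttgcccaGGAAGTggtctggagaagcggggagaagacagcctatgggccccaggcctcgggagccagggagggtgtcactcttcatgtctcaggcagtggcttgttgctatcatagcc
SYK unlabelled intronic peak, chr9:93577766-93577916: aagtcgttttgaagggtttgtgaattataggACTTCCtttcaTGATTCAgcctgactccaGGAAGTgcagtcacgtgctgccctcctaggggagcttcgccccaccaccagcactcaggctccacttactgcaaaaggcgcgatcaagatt
FYN promoter peak, chr6:112194656-112194760: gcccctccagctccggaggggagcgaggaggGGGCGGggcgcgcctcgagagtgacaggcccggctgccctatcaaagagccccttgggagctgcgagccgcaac
LCK promoter peak, chr1:32715731-32715881: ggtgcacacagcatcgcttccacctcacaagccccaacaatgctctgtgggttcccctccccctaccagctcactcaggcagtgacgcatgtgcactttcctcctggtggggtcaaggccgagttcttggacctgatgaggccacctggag

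At CSK, the kinase that inhibits the family (ENSG00000103653, plus strand of chromosome 15, 75074421 to 75095538), the promoter peak from 75072916 to 75077154 was the highest and the widest of the 12. Its height of 44 ranked 1234 and its width of 4239 bp ranked 48 among the 15412 peaks, and its total signal of 46716 ranked 104. The apex lay in intron 1 of the canonical transcript, 878 bp downstream of the nearest CSK start site. In the sequence shown above, an AGTTCA, an ETS motif that shares 1 base with it and an SP/KLF motif that directly follows filled one stretch from 75075783 to 75075799. A second CSK promoter peak (75091745 to 75093119) reached 27 in height (rank 6155) and a width of 1375 bp (rank 3227), with its apex in intron 5, 139 bp upstream of the start of a CSK transcript with a retained intron. Of the labelled genes, 8.42% had more than 1 promoter peak, and among the 7 genes here FGR, SYK and CSK did.

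The strongest signal inside the CSK gene did not carry its symbol. A peak from 75079003 to 75083307, in intron 1 of CSK with its apex 874 bp upstream of another CSK start site, was assigned to the microRNA gene MIR4513. With a height of 63 (rank 90), a width of 4305 bp (rank 43) and a total signal of 69323 (rank 13) it exceeded the CSK promoter peak by each measure. It lay 1848 bp from that peak, and an unlabelled peak upstream of the gene, from 75068904 to 75070754, lay 2161 bp from it on the other side with a height of 36 (rank 2815) and a width of 1851 bp (rank 1382). The other unlabelled peaks within 50 kb of CSK lay beyond its 3′ end and nearer to other genes. One, from 75110938 to 75111498, had its apex 647 bp from a start site of LMAN1L, a height of 31 (rank 4397) and a width of 561 bp (rank 11135). The other, from 75125572 to 75126501, had its apex 4396 bp from a start site of ULK3, a height of 26 (rank 6677) and a width of 930 bp (rank 6647). Across all labelled genes, the promoter peaks nearest to that of CSK in standardized log2 height, width and total signal were those of CRYBG1 (height 44, width 3907 bp), KLF13 (height 40, width 4081 bp) and LRP8 (height 45, width 3741 bp).

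FGR, a myeloid member of the family (ENSG00000000938, minus strand of chromosome 1, 27938575 to 27961696), had the most promoter peaks of the 9 genes. It had 4, a number reached or exceeded by 12 of the 6546 labelled genes, and they spanned 12604 bp at a gene of 23.1 kb. With peaks less than 1 kb apart merged, FGR had 2, as SYK and CSK did, and 309 labelled genes had at least that many. The widest, from 27958910 to 27961893, spanned the canonical start site and was 2984 bp wide (rank 230) and 27 high (rank 6155). Its apex lay in intron 1, 2224 bp downstream of the canonical start site, between ETS motifs whose starts were 47 bp apart. The other promoter peaks lay further into the gene. The peak at 27952466 to 27953439 reached a height of 32 (rank 4034) and a width of 974 bp (rank 6217), and its apex was 4 bp from an alternative FGR start site. The one from 27951332 to 27952095 had a height of 21 (rank 9879) and a width of 764 bp (rank 8469). The one from 27949290 to 27950725 had a height of 16, the lowest of the 12 (rank 14278), and a width of 1436 bp (rank 2876). That height is near the floor of the list, with 0.13% of all peaks lower. The interval of largest signal of this peak lacks an end in the list. The gaps between these last 3 peaks were 370 and 606 bp.

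The highest of all 33 peaks was an unlabelled one in FGR. It ran from 27957669 to 27958729 in intron 1, separated from the widest promoter peak by 180 bp, with a height of 52 (rank 498) and a width of 1061 bp (rank 5409). Its height was above 96.4% of all peaks, while its width was above 64.8%. A further unlabelled peak in intron 5, from 27944417 to 27945583, had a height of 34 (rank 3401) and a width of 1167 bp (rank 4552). The remaining unlabelled peaks of the window lay outside FGR. Those from 27985126 to 27987117 (height 21, rank 9879, width 1992 bp, rank 1073) and from 27989187 to 27990062 (height 22, rank 9138, width 876 bp, rank 7189) lay upstream, toward LINC02574 and IFI6. The one from 27925555 to 27926118 (height 16, rank 14278, width 564 bp, rank 11095) lay downstream within AHDC1. Counted over the gene itself, FGR held 6 apexes, or 25.9 per 100 kb, and CSK held 3, or 14.2 per 100 kb. FGR and CSK were also the shortest of the 9 genes (23.1 and 21.1 kb), where each apex weighs most. The others had 3.47 (PAG1), 3.10 (SYK), 2.98 (LYN), 0.469 (FYN) and 0 (SRC, YES1 and LCK) per 100 kb. The median over protein-coding genes with any apex was 3.35 per 100 kb, and 29.3% of protein-coding genes had one.

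**Figure D1:**
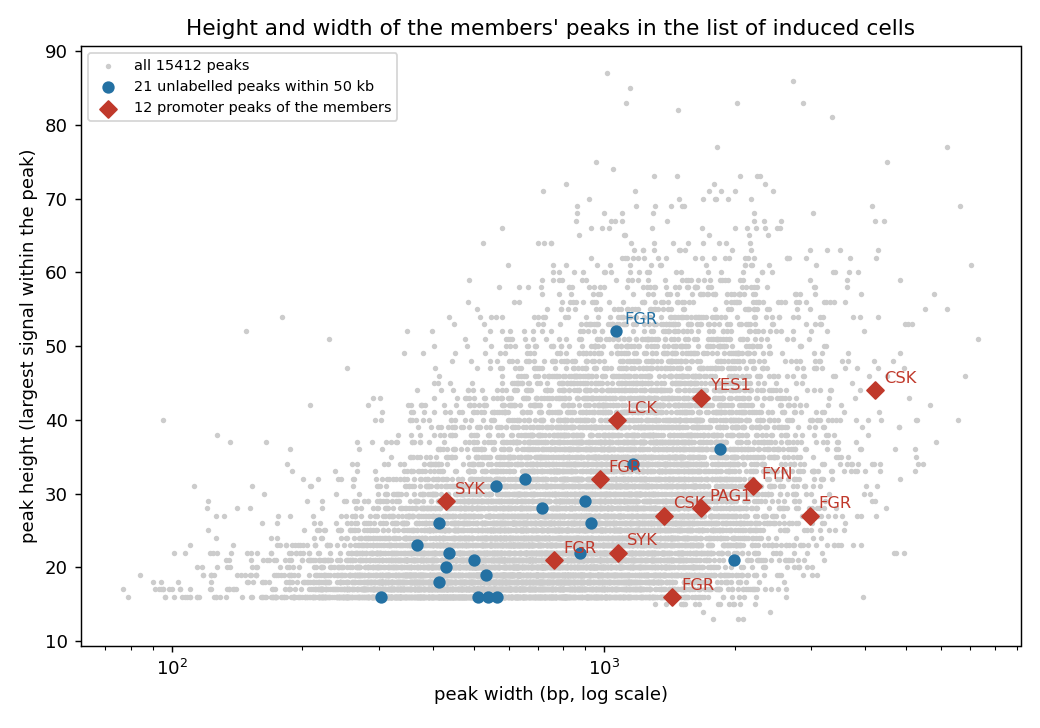
Height (largest signal, linear axis) against width (bp, log axis) of all 15412 peaks in grey, with the 12 promoter peaks as red diamonds with their gene and the 21 unlabelled peaks within 50 kb as blue points. The CSK promoter peak (4239 bp, height 44) lies at the wide edge of the list, and the highest blue point is the FGR intron 1 peak with a height of 52.

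SYK, the kinase that acts after the SRC family (ENSG00000165025, plus strand of chromosome 9, 93564069 to 93660831), had peaks with heights from 20 to 29, around the median of the list, 25. The promoter peak at 93563665 to 93564737 reached its apex 24 bp before a SYK start site, with a height of 22 (rank 9138) and a width of 1073 bp (rank 5322). Within its apex sequence lay GGAAGT motifs with starts 32 bp apart, the second overlapping a C/EBP motif by 1 base. A second peak with the SYK label, from 93605250 to 93605678, was higher and much narrower, with a height of 29 (rank 5211) and a width of 429 bp (rank 12998). It lay in intron 1, 15668 bp from the nearest SYK start site in GENCODE, and GGAAGT motifs with starts 17 bp apart stood within 75 bp of its apex.

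Unlabelled peaks at SYK also lay in its introns. The intron 1 peak at 93577536 to 93577950 was 26 high (rank 6677) and 415 bp wide (rank 13186), with GGAAGT motifs 29 bp apart (start to start) on opposite strands and a TGANTCA between them. The intron 3 peak at 93622743 to 93623643 was 29 high (rank 5211) and 901 bp wide (rank 6950). A peak 31209 bp upstream of the nearest SYK start site, from 93532536 to 93532964, had a height of 20 (rank 10691) and a width of 429 bp (rank 12998). At SYK the peak at the start site (22) was thus lower than each of the 3 intronic peaks (26, 29 and 29), and no replicate spread is available to set beside these differences.

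LCK, the T cell kinase of the family (ENSG00000182866, plus strand of chromosome 1, 32716845 to 32751766), had 1 promoter peak and no unlabelled peak within 50 kb. The peak (32715248 to 32716317) reached its apex 1039 bp before the nearest LCK start site, with a height of 40 (rank 1901) and a width of 1070 bp (rank 5340). No apex lay within the gene, and the next peak downstream was the promoter peak of HDAC1 (32757098 to 32758672, height 34). FYN, one of the kinases present in most tissues (ENSG00000010810, minus strand of chromosome 6, 111981535 to 112194655), had a promoter peak at 112193005 to 112195208, with the apex 30 bp before the canonical start site. Its height of 31 ranked 4397 and its width of 2204 bp ranked 728. Both unlabelled peaks near FYN were low. The one in intron 2, from 112163107 to 112163520, had a height of 18 (rank 12401) and a width of 414 bp (rank 13196), and the one 45477 bp upstream, from 112240067 to 112240503, had a height of 22 (rank 9138) and a width of 437 bp (rank 12884). FYN is the longest of the 9 genes, at 213 kb, and held that 1 apex.

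YES1, the third kinase of broad expression (ENSG00000176105, minus strand of chromosome 18, 721588 to 812547), had the second highest promoter peak. It ran from 812006 to 813679 and reached its apex 491 bp before the nearest YES1 start site, with a height of 43 (rank 1386), a width of 1674 bp (rank 1807) and a total signal of 25461 (rank 838). The height differed by 1 unit from that of CSK, and whether such a difference exceeds the error between replicates cannot be said from this list. One unlabelled peak lay 18001 bp upstream of the nearest YES1 start site (830268 to 830776), with a height of 16 (rank 14278) and a width of 509 bp (rank 11886).

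PAG1, the membrane adaptor that binds CSK (ENSG00000076641, minus strand of chromosome 8, 81880045 to 82024303), had the most unlabelled peaks. Its promoter peak (82023102 to 82024770) reached its apex 165 bp before the canonical start site, with a height of 28 (rank 5666) and a width of 1669 bp (rank 1828). Around it lay 7 unlabelled peaks, a number reached or exceeded at 0.947% of the labelled genes, and 4 of them were in intron 1. Those in the intron, with starts at 81986918, 81989273, 82005683 and 82019083, had heights of 21, 23, 28 and 16 (ranks 9879, 8433, 5666 and 14278) and widths of 498, 368, 716 and 537 bp (ranks 12046, 13800, 9028 and 11473). Those upstream of the gene, with starts at 82042565, 82059271 and 82066351, had heights of 19, 32 and 16 (ranks 11488, 4034 and 14278) and widths of 531, 656 and 304 bp (ranks 11539, 9813 and 14526). The last of these had its apex 8 bp from a start site of the gene ENSG00000253214. Every one of the 7 was narrower than the median peak of the list, 829.5 bp. The median of all unlabelled peaks was itself 634 bp, and those of 716 and 656 bp were wider than that. The highest of the 7 (32) exceeded the promoter peak. In the whole list 46.6% of the labelled genes had an unlabelled peak within 50 kb, and 6 of the 7 here did, all but LCK.

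**Figure D2:**
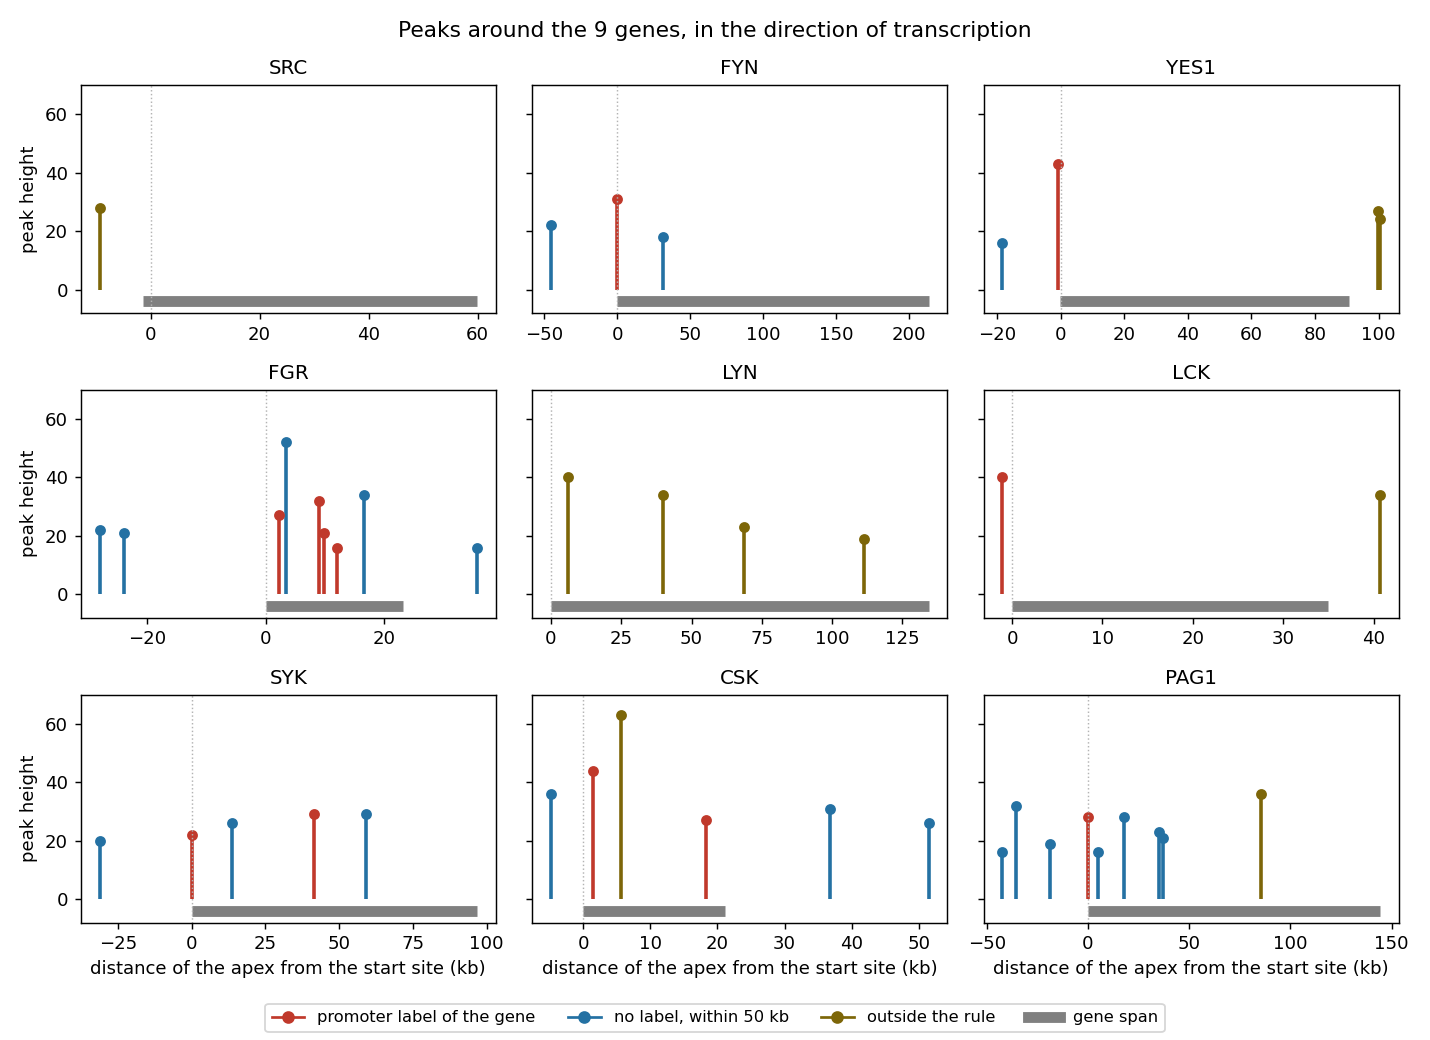
Height of each peak against the distance of its apex from the canonical start site (kb, positive in the direction of transcription), 1 panel per gene, with the gene span as a grey bar. Red stems carry the promoter label of the gene, blue stems are unlabelled peaks within 50 kb, and olive stems mark other peaks at the gene (up to 10 kb away) that do not meet the rule. FGR and CSK hold dense groups of peaks, LYN has 4 intronic peaks and none at its start site, and SRC has 1 peak upstream.

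The kinases without a row under their symbol were not free of signal. LYN, a myeloid and B cell kinase (ENSG00000254087, plus strand of chromosome 8, 56792394 to 56926728), had 4 unlabelled peaks, all in its introns. The first, from 56797906 to 56798661, lay in intron 1 with its apex 5996 bp downstream of the start site and a height of 40 (rank 1901), the same height as the LCK promoter peak, and a width of 756 bp (rank 8565). The second, from 56832047 to 56832460, had a height of 34 (rank 3401) and a width of 414 bp (rank 13196). The heights of the others, with starts at 56860843 and 56903546, were 23 (rank 8433) and 19 (rank 11488), and their widths 485 bp (rank 12250) and 560 bp (rank 11150). In order from the start site into the gene, the heights were thus 40, 34, 23 and 19. SRC (ENSG00000197122, plus strand of chromosome 20, 35973088 to 36034453) held no apex, and the single peak within 10 kb of it, from 35964736 to 35965496, reached its apex 7909 bp before the nearest SRC start site, with a height of 28 (rank 5666) and a width of 761 bp (rank 8508). These peaks do not meet the rule, since no SRC or LYN row anchors the 50 kb window. PAG1 had another such peak, in intron 3 (81938536 to 81939133, height 36, rank 2815, width 598 bp, rank 10601), which was higher than the 8 peaks that met it.

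Over the 12 promoter peaks, the heights lay between 16 and 44 (median 28.5), and over all 7169 promoter peaks of the list the median was 26. The widths lay between 429 and 4239 bp (median 1405.5 bp), against 1108 bp over all promoter peaks. The 21 unlabelled peaks had a median height of 22 and a median width of 561 bp, against 23 and 634 bp over all 8243 unlabelled peaks. At or above the median height of the list, 25, were 9 of the 12 promoter peaks and 9 of the 21 unlabelled ones. Over the whole list the medians of promoter and unlabelled peaks, 26 and 23, likewise lay above and below 25. Height divided by the mean signal per bp, a measure of how peaked the signal was, had a median of 3.29 in the 12 and 2.65 in the 21, against 2.88 and 2.85 in all promoter and all unlabelled peaks. A height of 16 was shared by 5 of the 33 peaks and by 1115 peaks of the list, and 0.13% of the list was lower.

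The promoter peaks of these genes differed in the DNA around their apexes, and the rest of each peak was not measured for CpG. The widest CSK and FGR promoter peaks span the canonical start sites. Their apexes lay 1403 and 2224 bp downstream of these sites, which were thus outside the window. Within 200 bp of the apex, the ratio of observed to expected CpG dinucleotides had a median of 0.226 in the 12 peaks, against 0.808 (quartiles 0.656 and 0.916) in all promoter peaks and 0.257 in all unlabelled peaks. A ratio under 0.5 was found in 8 of the 12 and in 16% of all promoter peaks. The peaks of FYN (0.881), SYK at its start site (0.890), PAG1 (0.880) and YES1 (0.677) were above 0.5, that of YES1 being below the median of all promoter peaks. All 4 peaks of FGR (0.0593 to 0.138), that of LCK (0.141), both of CSK (0.187 and 0.264) and the intronic one of SYK (0.408) were below it. The 4 peaks above 0.5 were also 4 of the 5 with the apex upstream of the canonical transcript, the other being that of LCK. In 3 of the 12, the widest of FGR, that of LCK and the intronic one of SYK, the apex lay over 1 kb from any GENCODE start site, as in 4.99% of all promoter peaks. All 21 unlabelled peaks had a ratio of 0.411 or less. The ratios of the FGR, LCK and CSK promoter peaks were all below the third quartile of unlabelled peaks, 0.388.

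**Figure D3:**
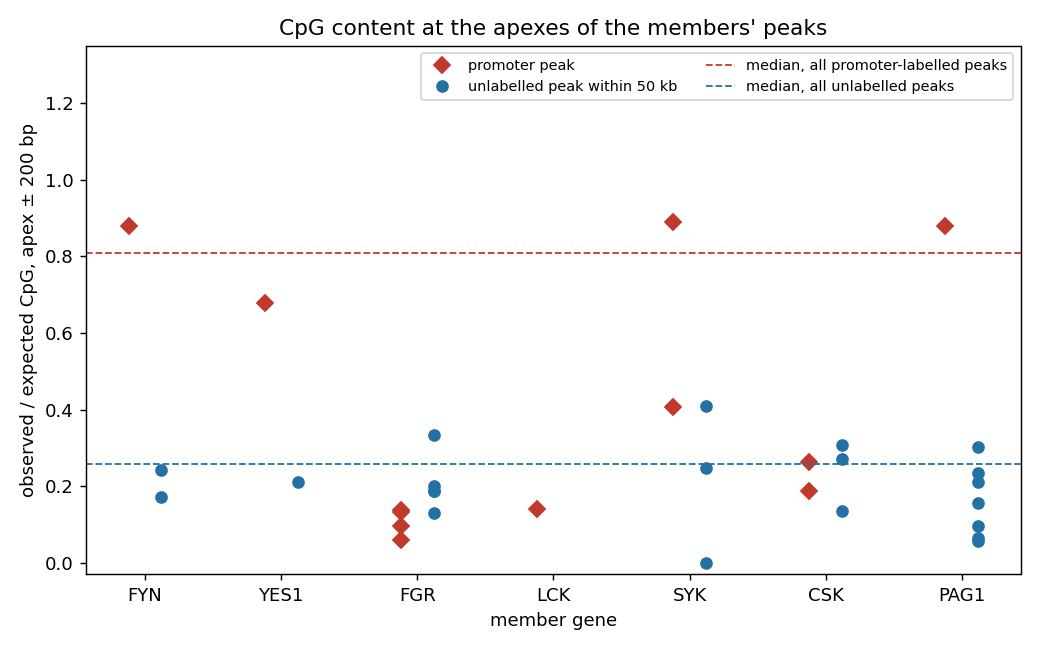
Ratio of observed to expected CpG within 200 bp of the apex for the peaks of each gene, promoter peaks as red diamonds and unlabelled peaks as blue points, with dashed lines at the medians of all promoter peaks (0.808) and all unlabelled peaks (0.257). Among the promoter peaks, those of FYN, YES1 and PAG1 and 1 of SYK lie above 0.6 and those of FGR, LCK and CSK at or below 0.264, while every unlabelled peak lies at or below 0.411.

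Motifs were counted within 200 bp of the apex. GGGCGG was found in 6 of the 12 promoter peaks, against 76.2% of all promoter peaks, and in 0 of the 21 unlabelled peaks, against 24.9%. GGAAGT was found in 7 of the 12 and 9 of the 21, against 36.7% and 47.1%, and both labelled SYK peaks, both of CSK, the widest of FGR and those of YES1 and PAG1 made up the 7. AGGTCA was found in 5 of the 12, namely 3 of FGR, that of LCK and the second of CSK, and in 4 of the 21, against 16.6% and 28.8%. AGTTCA was found in 2 of the 12 and 5 of the 21, against 10.3% and 21.0%. TGANTCA was found in 0 of the 12 and 9 of the 21, against 7.41% and 26.7%, of which 3 lay near FGR, 3 near SYK, 2 near PAG1 and 1 near CSK. The 3 near FGR all lay outside that gene, and the 1 near CSK had its apex 647 bp from a start site of LMAN1L. Those near PAG1 lay in its intron 1, and those near SYK in its introns 1 and 3 and 31209 bp upstream of its nearest start site. TGTGGT was found in 2 of the 12 and 6 of the 21 (15.4% and 40.3% of all), and TTGCNNAA in 2 of the 12 and 3 of the 21 (10.3% and 22.6% of all). Direct repeats of the receptor hexamers with 1, 2 or 5 bases between them, the classical elements of retinoic acid receptors, were found in 0 of the 33 windows, and in 0.0973%, 0.383% and 0.0714% of all windows of the list. A match is a run of letters and not a measured binding site. Of the 79 single-motif sites in the 33 windows, 2 pairs of sites of different motifs shared bases.

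**Figure D4:**
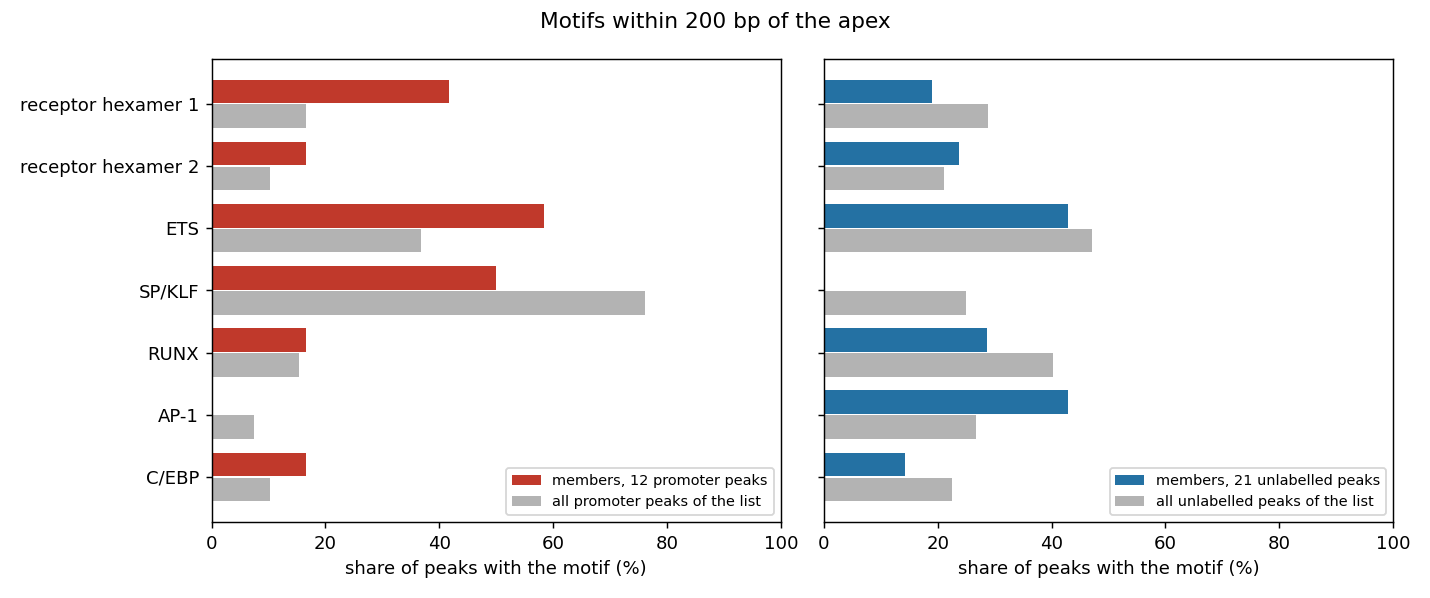
Share of peaks (%) with each motif within 200 bp of the apex, for the 12 promoter peaks of the genes examined (left, red) and the 21 unlabelled peaks near them (right, blue), with the share among all promoter or all unlabelled peaks of the list in grey. Receptor hexamers 1 and 2 are AGGTCA and AGTTCA. The AP-1 motif is at 0 of 12 on the left and 9 of 21 on the right.

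Genes that act with these kinases were counted from 4 lists of 62 genes in all, of which 38 had a promoter peak (61.3%), beside the 29.9% of protein-coding genes given above. The lists hold many genes of blood cells and were not matched to the background, so no reading is made of that difference. The symbol decides these counts, and by an apex up to 1 kb from a gene's own start sites, whatever the symbol, 39 of the 62 had a peak. The share of all protein-coding genes by that second measure was not counted, and the 29.9% does not apply to it. Among 15 kinases related to the SRC family or SYK, 8 had a promoter peak, among them ABL1, a kinase of the cytoplasm and nucleus (height 35), and TEC and FES (29 each). FRK, MATK, ZAP70, BMX, PTK2B and ABL2 were among those without one under their symbol, though PTK2B had an apex within 1 kb of a start site. Among 10 receptors and ITAM adaptors, 5 had one, led by TYROBP, an adaptor that recruits SYK (height 38), CSF1R and SELPLG (33 each), and CD247, FCGR1A, FCGR2A, FCGR2B and CLEC7A had none.

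Among 25 adaptors and substrates, 17 had a promoter peak. SHC1, an adaptor toward RAS, had the highest at 53, followed by VAV1, an exchange factor phosphorylated by SYK (44), and SKAP2, a substrate of the SRC family (42). BLNK, SKAP1, HCLS1, DOK1, BCAR1, CTTN, PLCG1 and PLCG2 had none under their symbol, though DOK1, CTTN and PLCG2 had an apex within 1 kb of a start site. Among 12 phosphatases and membrane scaffolds, 8 had one, and the highest were at PTPN12 (43), SLC9A3R1, a scaffold that links PAG1 to the cytoskeleton (36), and PTPRE (34). PTPN11, PTPRC, PTPRJ and LIME1 had none. The median over genes of the highest promoter peak was 26.5 in the 38, 32 in the 7 labelled genes described here and 27 in all 6546 labelled genes. A gene with several promoter peaks enters with its highest, which applies to FGR, SYK and CSK and to 8.42% of all labelled genes. Peak by peak, the median was 28.5 in the 12 promoter peaks and 26 in all promoter peaks.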

How the data were processed

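Cut&Run of U937-PR9 cells was analysed from 1 deposited peak list. According to the study's methods, reads were trimmed (Trimmomatic) and aligned to hg19 (Bowtie2), duplicates and blacklisted reads were removed (Samtools, Bedtools), SEACR was run with the paired control as background under its norm union option, and IDR under 0.05 across the 2 replicates decided which peaks stayed. Tool versions are not given in the sources used here. The authors deposited, in whole numbers per peak, a score equal to the total signal over the peak and the largest signal within it, and their scaling is not stated. Which column holds which was taken from the values, and width equals end minus start plus 1. The gene symbols are the authors' own, given where an apex fell in a promoter of the UCSC hg19 known genes. Positions are printed as the list has them.

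The 9 genes, the gene lists and the motifs were chosen with earlier results of these data known. The apex was the midpoint of the interval of largest signal, or its start in the 34 peaks without an end. Start sites, introns and UTRs came from GENCODE 44 on GRCh37, and sequence from the GRCh37 primary assembly. Of the 6546 symbols, 6381 are in GENCODE. The number of reads behind each library is unknown, so no counting interval is given, and no test was run. All peaks meeting the rule were named, with the 3 highest genes of each pathway list (ties kept) and the 3 genes nearest to the highest promoter peak. A few items that these rules take are not reported here. FYB and SLC9A3R1 were also searched as FYB1 and NHERF1. The motif search was tested on simulated sequences. Analyses used Python 3.11.15, numpy 2.4.6, pandas 2.3.3, scipy 1.17.1 and matplotlib 3.10.9. Alternatives were other distances, promoter definitions, thresholds, measures of strength and motif windows.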

Additional observations from a re-analysis of the deposited data

How the results depend on the processing

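No paired analysis was possible because replicates were already merged in the list, which also left no replicate to omit. Of 37 alternative values, 26 stayed close to the reported one (counts within 1.5 times, medians within their binomial interval). That interval treats the peaks of a gene as independent, though 4 of the 12 promoter peaks belong to FGR. It therefore cannot decide whether a median held. The median percentile of the promoter peaks was 61.7 by height, 66.7 by total signal and 55.7 by total signal per bp. Ranked by height among promoter peaks only, it was 56.6. For the unlabelled peaks it was 35.9 by height, 29.9 by total signal and 40.4 by height among unlabelled peaks only. The unlabelled peaks near the genes examined numbered 11 within 25 kb and 9 at or above the median height, against 21, because both settings take fewer peaks. The pathway genes with a promoter peak fell from 38 to 22 at or above the median height, for the same reason. With the whole peak searched, the peaks with AGGTCA numbered 16, with AGTTCA 15, with GGGCGG 12, with TGTGGT 16, with TTGCNNAA 11 and with a direct repeat with 1 base between 1, since the windows were longer. With 100 bp on each side, those with TGTGGT numbered 5 and those with TGANTCA 5. No share of all peaks is given for these other windows, so these counts cannot be set against the list. Counting instead apexes up to 1 kb from a gene's own start sites, 6 of the 9 genes had a promoter peak, all labelled ones but LCK, and within 3 kb 7 had. The share of all protein-coding genes by these definitions was not counted, so nothing is read from either number. Merging peaks less than 1 kb apart took the promoter peaks of FGR from 4 to 2. Without counts of reads, the depth behind any peak is unknown.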
